A study of Mus musculus with 7 samples.

Results

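The genes described here are 10 enzymes and chaperones that prepare collagen for cross-linking or carry it out: the lysyl oxidases Lox, Loxl1, Loxl2, Loxl3 and Loxl4, the lysyl hydroxylases Plod1, Plod2 and Plod3, the prolyl hydroxylase subunit P4ha1 and the collagen chaperone Serpinh1. They were taken by gene symbol from a table of 23420 gene rows, by a rule that uses no measured value but was set with earlier results of these data known, and all 10 were present and passed the filter on low values. RNA from flash-frozen mouse cardiac ventricle, which the tissue label calls whole heart, was sequenced as total RNA from 7 hearts. The 4 control mice had the genotype Ctla4+/+;Pdcd1-/- and are called unaffected in the design. The 3 ICI-myocarditis mice had the genotype Ctla4+/-;Pdcd1-/- and stand as a genetic model of immune-checkpoint inhibitor myocarditis, inflammation of the heart muscle after drugs that block CTLA-4 or PD-1. All 7 mice therefore lacked functional Pdcd1 by label, the groups differed in 1 copy of Ctla4, none was treated, and ages were given as 3-6 weeks.

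Collagen chains are modified inside the cell and joined outside it. In the endoplasmic reticulum, prolyl 4-hydroxylases stabilise the triple helix, lysyl hydroxylases modify lysines that later take part in cross-links or carry sugars, and the chaperone encoded by Serpinh1 (HSP47) binds the folded procollagen. After secretion and trimming, the copper-dependent lysyl oxidases oxidise lysine and hydroxylysine residues, which then react to form the covalent cross-links of collagen and elastin fibres. In the heart, fibroblasts are the main source of fibrillar collagen, and cross-linking is known to make scar tissue stiffer and harder to degrade.

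The members that passed the test were all enzymes of the extracellular step. All 5 lysyl oxidase genes were higher in ICI-myocarditis hearts, and each passed the test. Taken from the log2 differences, the rise was from 2.30-fold for Loxl2 to 6.29-fold for Lox. None of the 5 members that act inside the cell, Plod1, Plod2, Plod3, P4ha1 and Serpinh1, passed it in either direction. Differences were tested with limma on log2(normalized count + 1), adjusted by the Benjamini-Hochberg method over 15258 genes with a threshold of 0.05. Of all genes tested, 15.7% passed, 11.7% as higher and 4.00% as lower in ICI-myocarditis hearts, against 5 higher and 0 lower among the 10 members. Libraries held 20931730 to 39037176 reads recovered from the normalized values, and each member had at least 75 reads in every library, so the spread between hearts rather than counting limited the precision.

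Several features of the hearts moved with the groups. The summed normalized count of 8 macrophage and monocyte markers ranged from 11572 to 16964 in controls and from 47686 to 71178 in ICI-myocarditis hearts, and all 8 rose. The sum of 5 T cell markers ranged from 46.3 to 771 in controls and from 3332 to 5045 in ICI-myocarditis hearts, and all 5 rose. Control 2 held the highest T cell sum of the controls and also the highest control count of Pdcd1, whose normalized counts across controls 1 to 4 were 9.07, 244, 3.35 and 2.50, against 1481, 1096 and 1340.2 in ICI-myocarditis hearts 1 to 3. Ctla4 had 29.2 to 113 normalized counts in controls and 251 to 373 in ICI-myocarditis hearts, and the gene counts do not show which exons were read, so neither genotype could be checked. Of 8 fibroblast markers 1 rose and none fell. The sums of all 8 ranged from 75779.5 to 102329 in controls and from 61366 to 84688 in ICI-myocarditis hearts. Gsn made up the largest part of these sums, with a mean of 49898 in controls against 31076, and did not pass the test (limma adjusted p = 0.165). The log2 difference was above 0 for 5 of the 8 markers, and the mean log2 level of all 8 was 0.11 higher in ICI-myocarditis hearts. That mean averages markers that moved both ways. Log2 differences were 1.04 for Meox1, 0.70 for Tcf21, 0.27 for Pdgfra, 0.11 for Dpt and 0.074 for Lamc1. They were -0.20 for Col15a1, -0.45 for Pdgfrb and -0.67 for Gsn. Of 6 smooth muscle and pericyte markers 5 fell, of 7 endothelial markers 4 fell, and of 6 cardiomyocyte markers none passed the test although all 6 differences were below 0. In these bulk samples, more or fewer cells of a type and more or less RNA per cell cannot be told apart, and the part of these cell types in the values below was not tested.

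The promoters of Loxl4, P4ha1 and Serpinh1 are shown because they stand for the 3 kinds of behaviour among the members, a called lysyl oxidase, a hydroxylase subunit whose values stayed within the control range and a chaperone that was not called. They run from 250 bases before to 50 bases after the start of the gene on its own strand, 5′ to 3′, in RefSeq's GRCm38.p6 sequence. An entry was used for 5 of the 10 members. Capitals mark the cores of the hypoxia response element, ACGTG and GCGTG, searched on both strands, so that a match on the opposite strand reads CACGT or CACGC.
Loxl4, chr19:42612757-42613056, minus strand: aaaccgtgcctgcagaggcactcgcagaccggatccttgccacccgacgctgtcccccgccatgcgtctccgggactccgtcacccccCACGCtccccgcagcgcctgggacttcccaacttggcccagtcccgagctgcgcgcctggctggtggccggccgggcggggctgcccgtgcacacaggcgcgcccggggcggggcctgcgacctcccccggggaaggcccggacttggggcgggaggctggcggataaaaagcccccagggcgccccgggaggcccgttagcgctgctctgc
P4ha1, chr10:59323046-59323345, plus strand: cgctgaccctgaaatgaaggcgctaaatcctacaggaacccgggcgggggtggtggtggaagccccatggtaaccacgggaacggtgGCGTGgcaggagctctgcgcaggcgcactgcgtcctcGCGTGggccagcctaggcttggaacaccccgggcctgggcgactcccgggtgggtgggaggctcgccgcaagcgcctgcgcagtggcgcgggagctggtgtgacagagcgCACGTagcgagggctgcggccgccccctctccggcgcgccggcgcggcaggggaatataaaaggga
Serpinh1, chr7:99353190-99353489, minus strand: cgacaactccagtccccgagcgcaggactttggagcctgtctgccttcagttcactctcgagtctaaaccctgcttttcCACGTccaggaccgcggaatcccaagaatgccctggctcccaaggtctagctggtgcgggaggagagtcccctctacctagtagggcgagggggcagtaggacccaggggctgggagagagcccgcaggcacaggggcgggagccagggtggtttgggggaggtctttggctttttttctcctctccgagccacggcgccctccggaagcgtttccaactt
At least one of the 2 cores was present in all 5 member windows, and it was present in 43.8% of 32851 promoter windows of the same length. The 5 member windows were 53.3% to 75% G or C, and the comparison was not matched for this content. Of the 5 genes, only Loxl4 passed the test between groups. Counted separately, ACGTG was found in P4ha1, Plod3 and Serpinh1 and in 19.6% of all windows, and GCGTG in Loxl4, P4ha1, Plod1 and Plod3 and in 32.4% of all windows. The AP-1 site TGANTCA and the interferon-gamma activated site core TTCNNNGAA were in none of the 5 windows and in 7.81% and 8.30% of all windows. The SMAD binding element CAGACA was in the Serpinh1 window alone among the 5 and in 21.0% of all windows. The 2 hypoxia cores share the letters CGTG, and a stretch reading CACGTG holds ACGTG on both strands. A match is a description of the letters in the window and shows no binding.

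Lox encodes the founding lysyl oxidase of fibrillar collagen and elastin, and its difference was the largest of the 10 members. Controls 1 to 4 had 396, 375, 408 and 293 normalized counts of Lox, and ICI-myocarditis hearts 1 to 3 had 1358, 1657 and 5409.8. Each ICI-myocarditis heart was above every control, and ICI-myocarditis 3 was far above the other 2. The mean went from 368 ± 51.9 (SD, n = 4) to 2808 ± 2258 (SD, n = 3), a ratio of 7.63. Taken between group means of log2 values, the log2 difference was 2.65 (SE 0.424, 95% confidence interval 1.70 to 3.61) with an adjusted p of 0.00514 in limma. Without ICI-myocarditis 3 the log2 difference of Lox was 2.04 with an adjusted p of 0.00971. In the plot of levels by heart, the spread of Lox in the ICI-myocarditis group is wide while its controls lie close together.

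Loxl3, a lysyl oxidase-like enzyme of the scavenger-receptor subgroup (GRCm38 chr6:83034173-83052562, plus strand), showed the second-largest difference. Normalized counts of Loxl3 were 277, 391, 250.1 and 186 in the control hearts against 689.6, 968 and 2089 in the ICI-myocarditis hearts, with no overlap. The log2 difference was 2.06 (SE 0.384, 95% confidence interval 1.20 to 2.93) with an adjusted p of 0.00866 in limma, and without ICI-myocarditis 3 it was 1.61 with an adjusted p of 0.0268. In the annotation, 535 exonic bases of Loxl3 overlap exons of Htra2 on the opposite strand, and whether the counting used strand is not given in the sources used here. Htra2 itself averaged 486 ± 26.6 normalized counts (SD, n = 4) in the control hearts against 434 ± 33.0 (SD, n = 3), and did not pass the test (limma adjusted p = 0.580).

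The remaining 3 lysyl oxidases rose by smaller and similar amounts. Loxl1, best known for its part in elastic fibre upkeep (chr9:58287738-58313186, minus strand), had 2704, 1120.1, 1468 and 1291 normalized counts in controls and 2447, 4097 and 5898 in ICI-myocarditis hearts. Control 1 was above ICI-myocarditis 1, so Loxl1 was the lysyl oxidase whose groups overlapped. Its log2 difference was 1.33 (SE 0.368, 95% confidence interval 0.50 to 2.16) with an adjusted p of 0.0393 in limma. That call was lost without ICI-myocarditis 2 (adjusted p = 0.108), ICI-myocarditis 3 (0.162), control 2 (0.0525), control 3 (0.103) or control 4 (0.0753) in the same limma fit.

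Loxl2, a scavenger-receptor type enzyme that also acts on basement membrane collagen (chr14:69609068-69695834, plus strand), had 1745, 839, 1237 and 1141 normalized counts in controls and 2272, 2739 and 3394 in ICI-myocarditis hearts. The groups did not overlap, and the log2 difference was 1.20 (SE 0.265, 95% confidence interval 0.61 to 1.80) with a limma adjusted p of 0.0160. Without ICI-myocarditis 2 or ICI-myocarditis 3 the limma adjusted p of Loxl2 was 0.0535 and 0.0735, at log2 differences of 1.21 and 1.06. Loxl4, the lowest of the family in level (chr19:42593982-42612813, minus strand), had 154, 195, 146 and 93.8 normalized counts in controls and 279, 317 and 407 in ICI-myocarditis hearts. Here too the groups did not overlap, and the log2 difference was 1.21 (SE 0.289, 95% confidence interval 0.55 to 1.86) with a limma adjusted p of 0.0229. The Loxl4 call was lost in limma without ICI-myocarditis 2 (adjusted p = 0.0702), ICI-myocarditis 3 (0.104), control 1 (0.0518) or control 3 (0.0638).

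As a group, 4 of the 5 lysyl oxidases had groups that did not overlap, and 28.6% of all genes tested had such groups in either direction. The median log2 difference of the 5 was 1.33 and that of all genes tested was -0.02. ICI-myocarditis 3 had the highest count of all 5 lysyl oxidase genes, and it also had the highest sums of the macrophage and T cell markers and, among the ICI-myocarditis hearts, of the fibroblast markers. Over deviations from the group means in the 7 libraries, Pearson's r of the 10 pairs of lysyl oxidases ranged from 0.045 between Loxl2 and Loxl4 to 0.93 between Loxl1 and Loxl2. Lox and Loxl3 (0.88) and Loxl3 and Loxl4 (0.86) were also at the high end, and Loxl2 and Loxl3 (0.21) at the low end. These values share the libraries and their scaling and are given as a description.

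**Figure D1:**
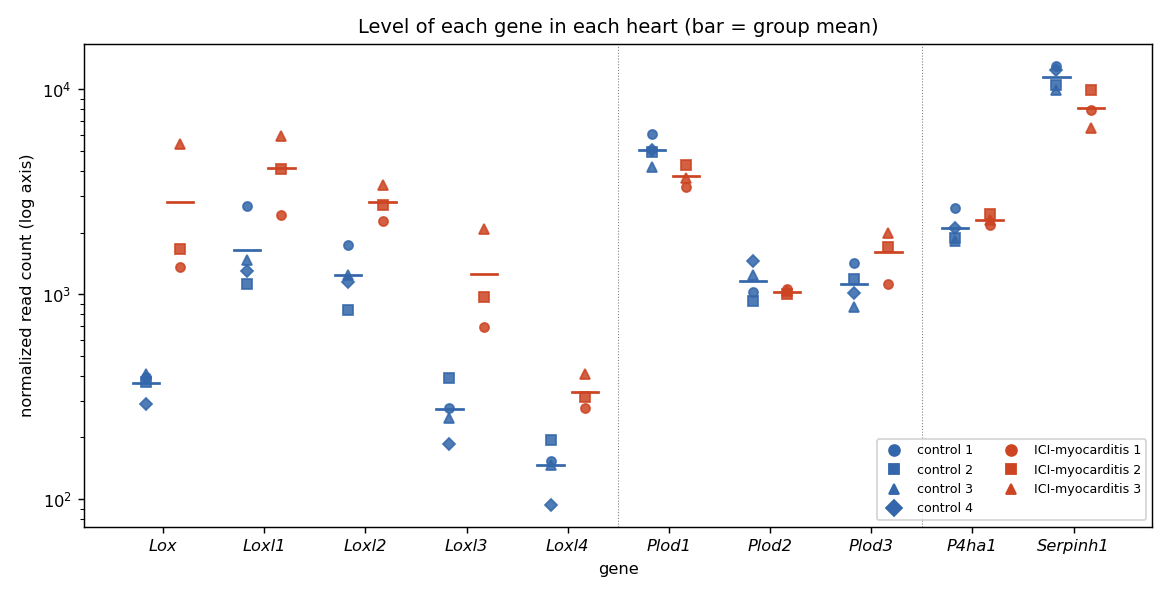
Normalized read count (log axis) of each of the 10 genes in each heart, with controls in blue, ICI-myocarditis hearts in red, a marker shape for each heart and a bar at each group mean. The red points lie above the blue ones for Lox, Loxl2, Loxl3 and Loxl4, overlap them for Loxl1, Plod1, Plod2, Plod3 and P4ha1, and lie below them for Serpinh1.

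The lysyl hydroxylases did not move as a group. Plod1, the enzyme that hydroxylates lysines of the collagen helix (chr4:147909753-147936767, minus strand), had 6048, 4915, 4153 and 5057 normalized counts in controls and 3320.1, 4285 and 3681 in ICI-myocarditis hearts. ICI-myocarditis 2 lay above control 3, and the log2 difference of -0.42 (SE 0.211, 95% confidence interval -0.89 to 0.06) did not pass the test (limma adjusted p = 0.221). Plod2, which hydroxylates the telopeptide lysines that give the more stable hydroxylysine-derived cross-links (chr9:92542223-92608428, plus strand), had 1022, 924, 1235 and 1458 normalized counts in controls and 1055, 999 and 1036 in ICI-myocarditis hearts. All 3 ICI-myocarditis values of Plod2 lay inside the control range, and the log2 difference was -0.15 (SE 0.200, 95% confidence interval -0.60 to 0.30, limma adjusted p = 0.673). The sign of this small difference depended on the scaling, as it was 0.011 when libraries were scaled by their totals.

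Plod3, which carries both lysyl hydroxylase and glycosyltransferase activity (chr5:136987019-136996648, plus strand), had 1413, 1185, 864 and 1016 normalized counts in controls and 1119, 1698 and 1984 in ICI-myocarditis hearts. The hearts with the highest values were ICI-myocarditis 2 and 3, but ICI-myocarditis 1 was below 2 controls. The log2 difference of 0.50 (SE 0.253, 95% confidence interval -0.07 to 1.07) did not pass the test (limma adjusted p = 0.223). Exons of Znhit1 overlap Plod3 on the opposite strand over 529 bases, and Znhit1 had a log2 difference of 0.19 (limma adjusted p = 0.670). The intervals of Plod1, Plod2 and Plod3 leave room for changes of up to about the sizes at their ends, so none of the 3 is shown to be unchanged.

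P4ha1, a catalytic alpha subunit of prolyl 4-hydroxylase (chr10:59323296-59373304, plus strand), had 2623, 1871, 1826 and 2099 normalized counts in controls and 2178, 2465 and 2290.0 in ICI-myocarditis hearts, all within the control range. Its log2 difference was 0.15 (SE 0.191, 95% confidence interval -0.28 to 0.58, limma adjusted p = 0.658). Serpinh1 (chr7:99345376-99353239, minus strand) had 12994, 10463, 9935 and 12466 normalized counts in controls and 7944, 9863 and 6480.2 in ICI-myocarditis hearts. Each ICI-myocarditis heart was below every control, though ICI-myocarditis 2 only narrowly. The mean was 11465 ± 1493 (SD, n = 4) in control hearts against 8096 ± 1697 (SD, n = 3), and the log2 difference of -0.51 (SE 0.244, 95% confidence interval -1.06 to 0.04) did not pass the test (limma adjusted p = 0.193). The authors' deposited table gives the same 5 members with adjusted p-values under 0.05, with a log2 fold change of 2.93 for Lox and an adjusted p of 0.116 for Serpinh1.

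Levels were compared between genes per kilobase of exonic sequence. In controls Serpinh1 was highest at 4693 ± 611 normalized counts per kilobase (SD, n = 4), followed by Plod1 at 745 ± 115, P4ha1 at 512 ± 88.9, Loxl1 at 499 ± 218, Plod3 at 248 ± 52.1, Loxl2 at 230 ± 69.7, Plod2 at 215 ± 44.0, Lox at 77.0 ± 10.9, Loxl3 at 40.5 to 84.95 over the 4 hearts and Loxl4 at 22.3 to 46.3. Among neighbours in this order of controls, the ranges over hearts were separate between Serpinh1 and Plod1, between Loxl1 and Plod3 and between Plod2 and Lox, and overlapped otherwise. By mean level in ICI-myocarditis hearts, Serpinh1 was still highest at 3314 ± 694 per kilobase (SD, n = 3), followed by Loxl1 at 1258 ± 523. Lox, one of the lowest in controls, came next at 588 ± 473, a mean raised by ICI-myocarditis 3. Lox was at 284, 347 and 1132 per kilobase in ICI-myocarditis hearts 1 to 3. In ICI-myocarditis 1 and 2 it lay below P4ha1 (529 and 599), Plod1 (491 and 633) and Loxl2 (420 and 507). In ICI-myocarditis 3 Lox lay above all of these. The ranges of Lox, P4ha1, Plod1 and Loxl2 overlapped from each gene to the next in ICI-myocarditis hearts, so the place of Lox among them is not resolved. Plod2 at 191 ± 5.24 and Loxl4 at 79.4 ± 15.6 closed the order in ICI-myocarditis hearts, with separate ranges.

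The makeup of each enzyme family was also compared per kilobase. The 5 lysyl oxidases together came to 1323, 705, 849 and 727 normalized counts per kilobase in the control hearts and to 1663, 2382 and 4099.6 in ICI-myocarditis hearts. The 3 lysyl hydroxylases together came to 1208 ± 152 (SD, n = 4) in controls against 1101 ± 145 (SD, n = 3). Within the lysyl oxidases, Lox held 6.27%, 11.1%, 10.1% and 8.43% in controls and 17.1%, 14.6% and 27.6% in ICI-myocarditis hearts, a higher share in each of the 3. Loxl1 held the largest share in all 7 hearts, at 54.1% ± 5.77 in controls and 46.8% ± 4.66 in ICI-myocarditis hearts, and those ranges overlapped.

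Within the lysyl hydroxylases the share of Plod3 was 22.4%, 22.6%, 18.5% and 18.1% in controls and 26.5%, 31.5% and 37.4% in ICI-myocarditis hearts, with no overlap. The share of Plod1 went the other way, from 61.5% ± 2.16 (SD, n = 4) to 50.6% ± 3.75 (SD, n = 3), and that of Plod2 was 18.1% and 17.6%. The exact two-sided permutation p was 0.0286 for the shares of Lox, Plod1 and Plod3, the smallest that 35 splits of 7 hearts allow, and 0.0762 after adjustment over the 8 genes, so none passed 0.05. With only Lox, Plod1 and Plod3 at the smallest p, this adjustment cannot fall under 0.05, however wide the separation. The other 5 shares had exact p-values from 0.143 to 0.886. The 8 shares are not independent, since those of a family sum to the whole.

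**Figure D2:**
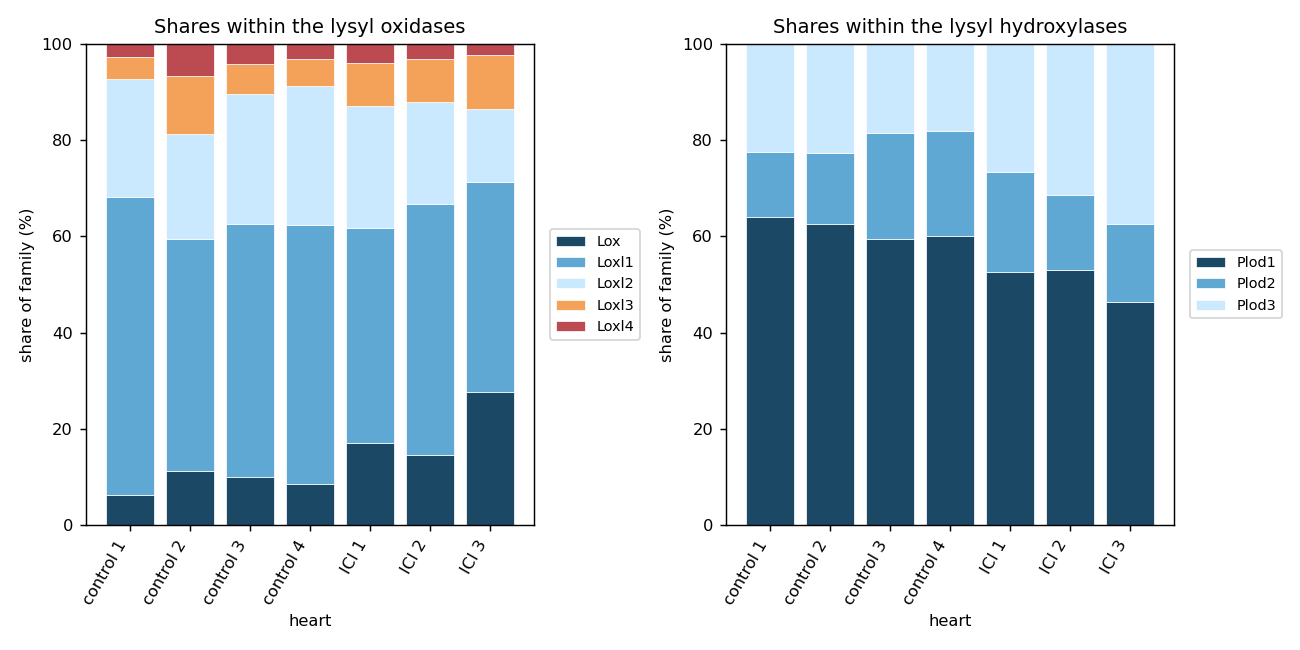
Share (%) of each gene in the summed normalized counts per kilobase of the 5 lysyl oxidases (left) and the 3 lysyl hydroxylases (right), with 1 stacked bar per heart. The Lox segment is taller in the 3 ICI-myocarditis hearts (14.6% to 27.6%) than in the 4 controls (6.27% to 11.1%), and the Plod3 segment is taller in them as well.

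Several of the fibrillar collagens that these enzymes act on, though not all, were higher in ICI-myocarditis hearts. Col1a1, a chain of type I collagen, averaged 11467 ± 5723 normalized counts (SD, n = 4) in control hearts against 41072 ± 15594 (SD, n = 3), a log2 difference of 1.87 (limma adjusted p = 0.0185). Col1a2, the partner chain of Col1a1, and Col3a1, the chain of type III collagen, rose by 1.63 and 1.42 on the log2 scale (limma adjusted p = 0.0158 and 0.0161). Each member was therefore also read against the mean log2 level of Col1a1, Col1a2 and Col3a1 in the same heart, a mean that was 1.64 higher in ICI-myocarditis hearts. Of the 8 genes listed as cross-linked substrates, 4 rose and none fell, the fourth being Col5a2, a type V collagen chain (1.41, limma adjusted p = 0.00871). Col5a1 (0.78, limma adjusted p = 0.164), Col5a3 (-0.55, 0.330), Col11a1 (0.96, 0.261) and the elastin gene Eln (0.66, 0.362) did not pass. The calls of Col1a1 and Col1a2 were lost without ICI-myocarditis 2, ICI-myocarditis 3 or control 3, and that of Col3a1 without ICI-myocarditis 2 or control 3.

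On this scale the 5 members that act inside the cell lay lower in every ICI-myocarditis heart than in any control. Relative to the 3 collagens, controls 1 to 4 had Serpinh1 values of -0.74, -0.51, -0.40 and 0.31 against -2.04, -2.49 and -2.94 in ICI-myocarditis hearts, a difference of -2.15. The differences were -2.06 for Plod1, -1.79 for Plod2, -1.49 for P4ha1 and -1.14 for Plod3. Each of these 5 had an exact two-sided permutation p of 0.0286, the smallest possible, and 0.0571 after adjustment over the 10 members, so none passed 0.05 after adjustment. With only 5 of the 10 members at the smallest possible p, this adjustment cannot fall under 0.05, however wide the separation.

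The relative differences of the 5 lysyl oxidases were smaller in size than those of the other 5 members, which was not tested as a difference. Lox was higher relative to them by 1.01 on the log2 scale, with overlapping groups and an exact permutation p of 0.0571 (0.0952 adjusted). The relative differences of Loxl1, Loxl2, Loxl3 and Loxl4 were -0.31, -0.43, 0.42 and -0.43, with exact permutation p-values from 0.200 to 0.371. Because the same reference is subtracted from every member, the 10 relative differences share its variation. Against Col5a1 and Col5a2, whose mean log2 level was 1.09 higher in ICI-myocarditis hearts, Lox was higher by 1.56 and Serpinh1 lower by the difference of -1.61. Against the 8 fibroblast markers, whose mean differed by 0.11, the lysyl oxidases were higher by 1.10 to 2.54. On that scale Plod1, Plod2, Plod3, P4ha1 and Serpinh1 differed by -0.53, -0.26, 0.39, 0.039 and -0.62, and the groups overlapped for all 5 (exact permutation p of 0.0857 or more). For Plod1, Plod2, Plod3 and P4ha1, the separation from the controls therefore depends on the collagens as the reference. Serpinh1 was below every control without any reference too, and its groups overlapped only against the fibroblast markers.

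**Figure D3:**
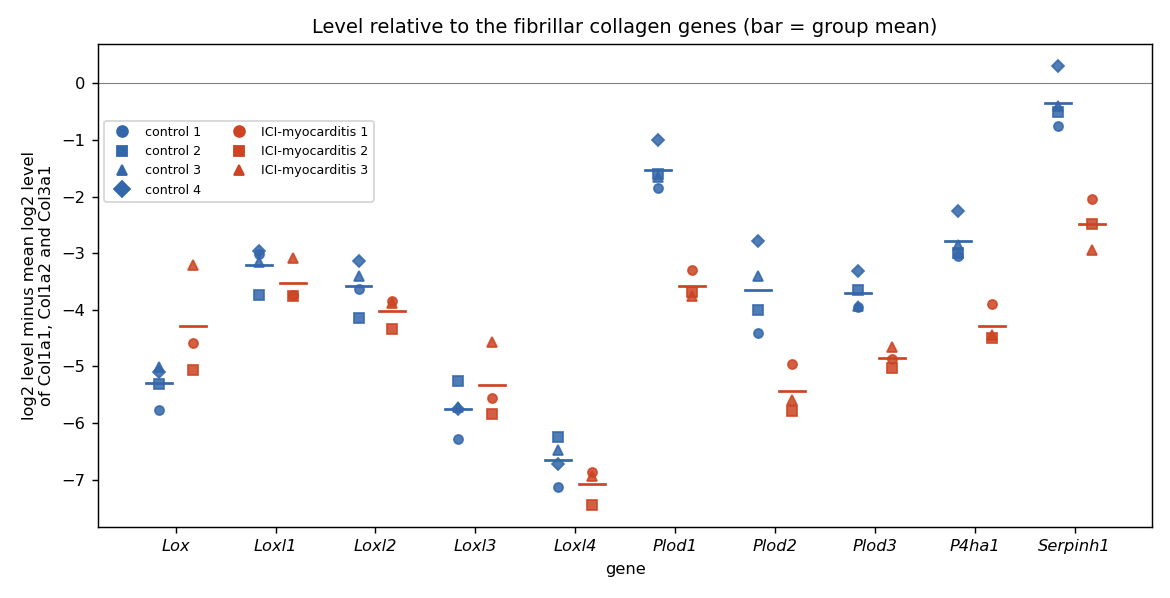
Log2 level of each gene minus the mean log2 level of Col1a1, Col1a2 and Col3a1 in the same heart, with controls in blue, ICI-myocarditis hearts in red and a bar at each group mean. The red points lie below the blue ones for Plod1, Plod2, Plod3, P4ha1 and Serpinh1, while the 2 groups overlap for the 5 lysyl oxidases.

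Other genes of collagen hydroxylation and folding were mostly not called: of 16 tested, 1 rose, 2 fell and 13 did not pass, with a median log2 difference of 0.20. The second prolyl 4-hydroxylase alpha subunit, P4ha2, had 1563, 1554, 1464 and 1613 normalized counts in controls and 879.9, 763 and 565 in ICI-myocarditis hearts. No ICI-myocarditis value of P4ha2 came near the control range, and it fell by 1.10 (log2, SE 0.195) with a limma adjusted p of 0.00719. The third alpha subunit, P4ha3, had 2.02, 6.17, 1.12 and 2.50 normalized counts in controls, that is 1 to 5 reads, and 12.3, 48.6 and 65.7 in ICI-myocarditis hearts. P4ha3 passed the test with a fitted log2 difference of 3.31 (limma adjusted p = 0.0124), which depends on the pseudocount at such low control counts, and it failed the filter on low values when any ICI-myocarditis heart was left out. Of the per-kilobase sum of the 3 alpha subunits, P4ha1 held 67.0% ± 3.28 (SD, n = 4) in controls against 81.0% ± 2.41 (SD, n = 3) in ICI-myocarditis hearts, and P4ha2 held 32.9% ± 3.23 and 17.0% ± 3.70, given as a description.

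The collagen galactosyltransferase listed as Glt25d2 (Colgalt2), which adds galactose to hydroxylysine, fell by 1.23 (log2, SE 0.261) with a limma adjusted p of 0.0140, from 601 ± 151 normalized counts (SD, n = 4) to 253 ± 54.1 (SD, n = 3). That call was lost without ICI-myocarditis 3 and when libraries were scaled by their totals. P4hb, the protein disulfide isomerase that serves as the beta subunit of prolyl 4-hydroxylase, had a log2 difference of 0.50 (limma adjusted p = 0.304). Crtap and Ppib, partners in the prolyl 3-hydroxylation complex, had 0.06 and 0.27 (limma adjusted p = 0.875 and 0.430).

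Among 14 genes of procollagen secretion and cleavage, 3 rose, 1 fell and 10 did not pass, with a median log2 difference of 0.08. Pcolce, the enhancer of C-propeptide cleavage, had 2291, 1919, 1724 and 1863 normalized counts in controls and 2702, 3592 and 4142 in ICI-myocarditis hearts, a log2 difference of 0.82 (limma adjusted p = 0.0280). Adamts2 and Adamts14, proteases that remove N-propeptides, rose by 1.25 and 1.39 on the log2 scale (limma adjusted p = 0.0470 and 0.0260). Bmp1, the C-proteinase that also activates pro-lysyl oxidase, had a log2 difference of 0.46 that did not pass (limma adjusted p = 0.163). Its relative Tll2 averaged 97.6 ± 31.8 normalized counts (SD, n = 4) in controls and 26.8 ± 25.8 (SD, n = 3) in ICI-myocarditis hearts. Between group means of log2 values, Tll2 fell by 2.15 (limma adjusted p = 0.0342). The calls of Pcolce, Adamts2, Adamts14 and Tll2 were each lost without ICI-myocarditis 3 or without control 3. Those of Pcolce, Adamts2 and Adamts14 were also lost without ICI-myocarditis 2, those of Pcolce, Adamts2 and Tll2 without control 4, that of Adamts14 without control 1, that of Adamts2 without control 2 and that of Tll2 without ICI-myocarditis 1. Counting all 18 alternatives, the call of Adamts2 held in 9, being lost also with edgeR and TMM scaling (adjusted p = 0.0544), in limma without trend or robust variance (0.0705) and without the filter (0.0521). The call of Tll2 held in 10, being lost also with both edgeR fits (adjusted p = 0.0748 and 0.0754), with voom (0.0840) and with scaling by library total (0.0594), and its log2 difference ranged from -2.87 to -1.33.

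Enzymes that cross-link matrix in other ways differed among themselves. F13a1, the coagulation factor XIII A subunit, a transglutaminase also carried by resident macrophages, had 2308, 3155, 2922 and 3503 normalized counts in controls and 1221, 1025 and 728 in ICI-myocarditis hearts. It fell by 1.60 (log2, SE 0.233) with a limma adjusted p of 0.00407, while all 8 macrophage and monocyte markers rose. Tgm1, a transglutaminase best known from skin, went from 17.3 ± 4.95 (SD, n = 4) to 53.5 ± 5.08 normalized counts (SD, n = 3), a log2 difference of 1.61 (limma adjusted p = 0.0179). The Tgm1 call was lost without any 1 of the ICI-myocarditis hearts. Of the 5 genes of this list, Tgm3 was too low to test, and the remaining 2, Tgm2 and Pxdn, did not pass. Tgm2, far higher in level than Tgm1, averaged 8288 ± 2467 normalized counts (SD, n = 4) in controls against 16591 ± 5379 (SD, n = 3). Its groups did not overlap, and its log2 difference was 0.995 (limma adjusted p = 0.0607). Pxdn had a log2 difference of -0.58 (limma adjusted p = 0.275).

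Partners of fibre assembly moved upward where they moved. Of 10 tested, 3 rose and none fell, and the median log2 difference was 0.73. The 4 with the lowest p were Postn, a matricellular protein (2.96, limma adjusted p = 0.00251), Fn1, fibronectin (1.96, 0.0131), Fbn1, fibrillin-1 (1.14, 0.0162), and Efemp2, a fibulin that brings pro-lysyl oxidase to elastic fibres (0.95, 0.0601), the last of which did not pass. The Fbn1 call was lost without ICI-myocarditis 2, ICI-myocarditis 3 or control 3.

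Lox, Plod2 and P4ha1 are known targets of hypoxia signalling, and Lox of TGF-beta signalling, so a list for each was read. Of 15 hypoxia-responsive genes, 2 rose and none fell, and the median log2 difference was -0.23. The genes with the lowest p in that list were Slc2a1, a glucose transporter (1.07, limma adjusted p = 0.0162), Pfkfb3, a glycolysis regulator (1.69, 0.0162), Vegfa, an endothelial growth factor (-0.74, 0.0729), and Pdk1, a mitochondrial kinase (-0.67, 0.149). Both hypoxia-list calls were lost without ICI-myocarditis 3 or control 3, and that of Pfkfb3 also without control 1. Of 11 TGF-beta response genes, 5 rose and none fell, and the median log2 difference was 1.14. The lowest p among them belonged to Timp1, a metalloproteinase inhibitor (4.87, limma adjusted p = 0.00251), Ltbp2 (4.07, 0.00316), Tgfbi (2.66, 0.00405) and Ctgf, connective tissue growth factor (2.10, 0.00757).

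**Figure D4:**
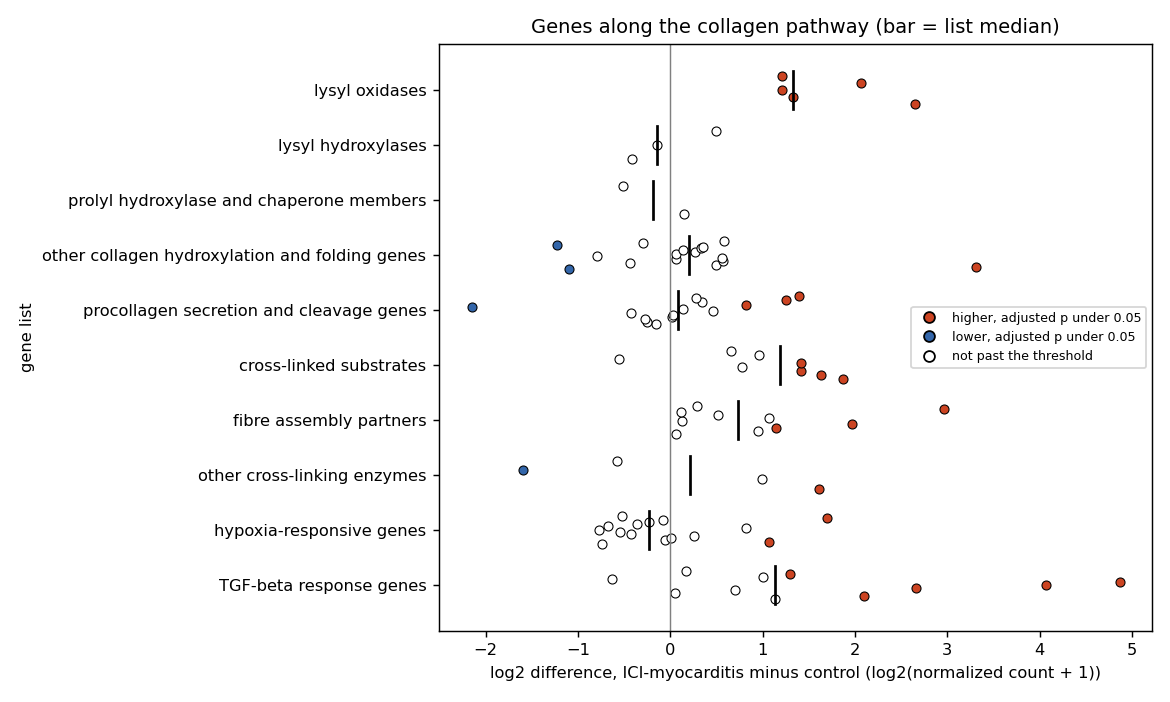
Log2 difference (ICI-myocarditis minus control, on log2(normalized count + 1)) of every tested gene in 10 lists along the collagen pathway, with 1 point per gene, a bar at each list's median, and fill marking genes past the limma threshold as higher (red) or lower (blue). All 5 lysyl oxidases are filled red, and no lysyl hydroxylase, nor P4ha1 or Serpinh1, is filled.

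The tested genes whose levels tracked a member most closely over the 7 hearts were found by Pearson's r of log2(normalized count + 1) among 11962 genes with a mean of at least 100 normalized counts, as a description. For Lox they were Emp1 (0.997), Akr1b8 (0.996), Anxa4 (0.995), Dkk3 (0.994) and Lipa (0.994). For Plod2 they were Efr3a (0.995), Efha1 (0.990), Morf4l1 (0.987), Atf2 (0.985) and Pum2 (0.979). For Serpinh1 they were Adra1d (0.991), Vars2 (0.989), Asb18 (0.989), Rhbdl3 (0.986) and Aars2 (0.986). All points of such an r share the library scaling and, for Lox and Serpinh1, the split between the groups.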

How the data were processed

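Total RNA libraries (a stranded kit, paired-end, per the labels' protocols) from 7 mouse hearts, 4 control and 3 ICI-myocarditis, were compared, with groups and replicate numbers taken from the labels. Reads were aligned with STAR 2.7.3 and the build GRCm38 (mm10) was used, per the submitters' processing notes. The counting program, its annotation and its use of strand are not given in the sources used here. The per-library values in the table deposited by the authors are a signal: the read count of each gene over a size factor of its library, which the values themselves show, since 100% of values were within 0.1 of a whole number of reads in every library, and for control 1, whose step is 1.01, this is a weaker sign. Further columns that the authors deposited hold a log2 fold change, a score (the test statistic) and a p-value of their own comparison, per the file headers. In 27 rows gene names had turned into dates and 2 names were repeated, together 0.143% of reads.

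limma 3.58.1 (R 4.3.3) was fitted to log2(normalized count + 1) with empirical Bayes trend and robust variance, over the 15258 genes that reached 10 normalized counts in 3 or more libraries, with Benjamini-Hochberg adjustment and a threshold of 0.05. Fold changes on this scale understate the change of low genes. Log2 differences were taken between group means of log2 values, so they need not match the ratio of the mean counts. Relative levels and family shares were tested with exact two-sided permutation tests over the 35 splits. Recovered reads were tested with edgeR 4.0.16, DESeq2 1.42.0 and limma-voom as alternatives. Scripts were tested on simulated data. Exonic lengths and gene positions came from GENCODE M21 (GRCm38) and promoters from RefSeq (GRCm38.p6). Intervals for single genes cover the spread between hearts. The reads carry no molecular identifiers.

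The members and the gene lists were chosen with earlier results of these data known. Named were all 10 members, every called gene of 4 lists near them (hydroxylation and folding, secretion and cleavage, substrates, other cross-linking enzymes), P4ha2, P4hb, Crtap, Ppib, Bmp1 and Pcolce whatever their p, the 4 lowest p of each of 3 further lists, Ctla4 and Pdcd1, and for Lox, Plod2 and Serpinh1 the 5 genes of most similar pattern. The uncalled substrates, the uncalled other cross-linking enzymes and the 8 fibroblast markers were named as well. Htra2 and Znhit1 were named for their overlap with members. Exons on the opposite strand also overlap Plod2 (Gm38391, 346 bases), Loxl2 (Gm27177, 301 bases) and Lox (AC161119.1, 30 bases). The levels of those overlapping genes are not given here.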

Additional observations from a re-analysis of the deposited data

How the results depend on the processing

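Under 18 alternatives (scaling, filter, pseudocount, limma settings, voom, edgeR, DESeq2, a replicate block and each heart left out), Lox (log2 2.04 to 3.03) and Loxl3 (1.61 to 2.41) passed in all 18, Loxl2 in 16, Loxl4 in 13 and Loxl1 in 11, and Plod1, Plod2, Plod3, P4ha1 and Serpinh1 in none. With single hearts left out, 2 to 5 members were called higher, 829 to 2252 of all genes were higher (1787 with all hearts) and 157 to 1088 lower (610 with all hearts); 2 members remained without ICI-myocarditis 2 or 3 and 3 without control 3. With 1 heart left out an arm still held at least 2. Genes called lower numbered 1243 in DESeq2, 1518 in voom, 311 with scaling by library total and 389 with a replicate block, and the higher share of calls, 74.6%, became 63.9%, 62.1%, 84.3% and 78.1%; the cause was not tested. Scaling by library total moved the median log2 difference of all tested genes from -0.02 to 0.13. Same-number hearts had correlations of deviations of -0.27, -0.21 and -0.08, and pairs with different numbers ranged from -0.48 to 0.45. Deviations from a group mean are tied to each other in groups of 4 and 3, so these values cannot settle whether the numbers pair hearts. With the replicate block, to which control 4 has no partner and adds nothing, 3 members were called. Loxl1 (1.24, limma adjusted p = 0.0950) and Loxl4 (1.01, 0.0860) were lost. The block also ended the calls of Col1a1, Col1a2, Col3a1, Pcolce, Adamts2, Adamts14, Tgm1 and Fbn1. Without trend or robust variance Loxl1 had a limma adjusted p of 0.0598. Directions turned for Plod2 with library totals (0.011, limma adjusted p = 0.978), Crtap without ICI-myocarditis 3 (-0.088, within a range of -0.088 to 0.25 over hearts left out), the Plod2 share without division by length (0.245 percentage points against -0.460), and, relative to Col5a1 and Col5a2, Loxl1 (0.24), Loxl2 (0.11) and Loxl4 (0.11). Relative to fibroblast markers they turned for Loxl1 (1.22), Loxl2 (1.10), Loxl4 (1.10), Plod3 (0.39) and P4ha1 (0.039). Low counts, 1 to 5 reads in controls, limit the value of P4ha3.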
